A study of Mus musculus with 965 samples.

Results

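The genes examined were Nodal, Gdf3, Tdgf1, Lefty1, Lefty2 and Cer1, the ligands, coreceptor and antagonists of the Nodal pathway. They were chosen by name, and all 6 were found among the 36849 genes of the count table. Their levels and the share of cells with their reads were measured in 965 single cells of mouse embryoid bodies (EBs), aggregates in which embryonic stem cells (ESCs) differentiate once leukemia inhibitory factor is withdrawn. All cells came from the male ESC line E14, wild type or with both copies of a gene for a de novo DNA methyltransferase lost. The groups were wild type (WT, 230 cells), Dnmt3a-/- (3AKO, 363 cells of the clones 3A2 and 3A38) or Dnmt3b-/- (3BKO, 372 cells of the clones 3B126 and 3B77). Cells were collected at days 3, 6 and 8, except that 3A2 had no day 8 cells among those used here. A clone is 1 line, and the cells of a clone and day came from pooled EBs sorted into 1 plate, or for WT at day 8 into the plates C343 and C344. The labels name 3 batches. Both 3AKO clones were in the first, WT shared the second with 3B126, and 3B77 was alone in the last, so genotype cannot be told apart from batch for any clone but 3B126. No label names a treatment besides the differentiation itself.

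Nodal is a secreted ligand of the TGF-beta family that keeps the epiblast pluripotent and then induces mesendoderm at the primitive streak. It binds activin receptors together with a coreceptor of the EGF-CFC family, here Tdgf1 (Cripto), and signals through Smad2, Smad3 and the factor Foxh1. Gdf3 is a related ligand of pluripotent cells that uses the same receptors. Lefty1, Lefty2 and Cer1 (Cerberus) are secreted antagonists, of which the Lefty genes are themselves targets of the pathway, while Cer1 is known from the anterior visceral endoderm and the nascent mesendoderm.

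The promoters of these genes are shown because the levels of most of these genes ran in parallel and because both enzymes lost here methylate CpG sites. Of the 6 genes, 3 matched an entry of the RefSeq promoter sequences of GRCm38.p6, and Gdf3, Lefty1 and Lefty2 had no entry. Each line gives the 250 bases before the start of transcription, 5′ to 3′ on the strand of the gene. Capitals mark matches to any of 6 motifs searched on both strands.
Nodal, chr10:61417722-61417971, plus strand: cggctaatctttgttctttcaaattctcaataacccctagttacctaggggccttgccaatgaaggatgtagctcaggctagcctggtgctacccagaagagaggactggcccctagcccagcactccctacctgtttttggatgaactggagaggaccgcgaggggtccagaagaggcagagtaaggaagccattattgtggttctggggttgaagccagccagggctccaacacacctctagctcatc
Tdgf1, chr9:110946159-110946408, minus strand: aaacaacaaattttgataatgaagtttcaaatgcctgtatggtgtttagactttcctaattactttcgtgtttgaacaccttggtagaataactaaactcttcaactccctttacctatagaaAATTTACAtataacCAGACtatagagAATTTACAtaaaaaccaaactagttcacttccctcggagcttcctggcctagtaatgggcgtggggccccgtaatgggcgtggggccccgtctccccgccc
Cer1, chr4:82885152-82885401, minus strand: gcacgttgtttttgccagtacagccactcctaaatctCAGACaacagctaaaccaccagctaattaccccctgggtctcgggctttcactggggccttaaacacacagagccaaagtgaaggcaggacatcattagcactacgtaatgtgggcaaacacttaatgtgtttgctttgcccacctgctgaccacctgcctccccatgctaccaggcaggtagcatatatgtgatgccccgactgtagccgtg
The Tdgf1 window held 2 matches to the Foxh1 core TGTNNATT, which 10.9% of all 32851 promoter windows held, and between them 1 match to the Smad core CAGAC, which 42.2% held. The Cer1 window held 1 Smad core and the Nodal window none of the 6 motifs. The palindromic Smad site GTCTAGAC, the T-box core TCACAC, the octamer ATGCAAAT and the Sox core CATTGT had no match in any of the 3 windows, against 0.167%, 12.3%, 1.601% and 10.7% of all windows. The windows held 3 CpG sites for Nodal, 7 for Tdgf1 and 5 for Cer1, against a median of 6 over all windows. A match is a string of letters and not a measured binding site, and methylation was not measured in these cells.

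Lefty1 (chromosome 1, 180935022 to 180938400, plus strand) and Lefty2 (chromosome 1, 180893108 to 180899103, plus strand) lie 35918 bases apart in GRCm38, and their coding sequences have the same length. Of 1107 coding positions 1017 were identical (91.9%), so it matters whether reads can be assigned to one of them. The stretch of 60 bases in which the pair differs most lies near the start of the coding sequence, with 42 identical positions, and capitals mark the differing bases.
Lefty1, chr1:180935143-180935202: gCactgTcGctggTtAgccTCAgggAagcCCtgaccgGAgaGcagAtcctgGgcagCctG
Lefty2, chr1:180893217-180893276: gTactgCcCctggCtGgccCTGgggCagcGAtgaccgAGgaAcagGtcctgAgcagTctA
Reads of 75 bases, as sequenced here, that match both genes alike were left out of the deposited counts. Of the possible 75-base windows of the longest transcript, 11.2% of Lefty1 and 7.21% of Lefty2 were shared with the other gene, and 8.67% of Tdgf1 with its pseudogene Tdgf1-ps1. Nodal and Gdf3 shared no window with another gene, and Cer1 shared 0.120%. Levels of Lefty1, Lefty2 and Tdgf1 are thus slightly understated, and most of the sequence of each can still be told apart.

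The libraries held 9810248 to 44529830 reads per clone and day, with a median of 255315 reads per cell. Dnmt3a was at 1.10 to 22.4 CPM, a read count scaled to equal library totals, in the 3AKO libraries and at 17.95 to 224 CPM in the others, and was lower in 3AKO at each day. At day 3 Dnmt3b stood at 31.1 CPM in 3B126 and 30.6 in 3B77, and between 228 and 334.2 in WT and 3AKO. Which exons were deleted was not found in the labels or methods. At day 6 Dnmt3b did not separate the labels, with 47.4 CPM in the library labelled 3B126 and 8.29 CPM in 3A38, and at day 8 it was at most 4.65 CPM in all libraries. In 3B126 no cell held at least 3 Y-linked reads (0 of 73, 0 of 58 and 0 of 51 at days 3, 6 and 8), although the line E14 is male. Some day 8 cells stood apart from earlier cells with the same label in Y-linked transcripts. They were read in 11 of the 40 cells labelled 3B77 at day 8, although 0 of 79 cells at day 3 and 0 of 71 at day 6 had them, and in none of the 68 cells of WT plate C344, although 23 of 74 WT cells had them at day 3. The comparisons of day 8 with day 3 and with WT, the late cells with at least 4 genes and the day 8 cells split by Pou5f1 are therefore also given without these libraries, and other day 8 values by plate or library.

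At day 3 all of the genes but Cer1 were expressed in every clone. At day 6 each of these 5 genes had a lower level in WT, 3A38, 3B126 and 3B77, while in 3A2 Tdgf1 and Lefty2 had higher levels at day 6 (456 and 882 CPM) than at day 3 (251 and 673 CPM). Levels are CPM from summing the reads of all cells of a clone and day and scaling the totals with TMM factors. In such sums fewer cells with a transcript and less RNA per cell cannot be told apart, so the share of cells with a read was measured as well.

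Nodal (chromosome 10, 61417972 to 61425338, plus strand), the ligand itself, was read at no more than 19.9 CPM in any library. Its level at day 3 was 5.74 CPM in WT, 19.9 in 3A2, 15.8 in 3A38, 6.74 in 3B126 and 9.55 in 3B77. At day 6 it was 3.20 CPM in WT, 5.85 in 3A2, 2.13 in 3A38, 2.26 in 3B126 and 4.53 in 3B77. At day 8 the level was 4.28 CPM in WT, 0.138 in 3A38 and 4.74 in 3B126, and no read was found in 3B77. Nodal was lower at day 6 than at day 3 in all 5 clones, and the ranges of the days overlapped only between 5.74 and 5.85 CPM.

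Gdf3 (chromosome 6, 122605403 to 122610087, minus strand), the second ligand, did not overlap between days 3 and 6. It stood at day 3 at 401 CPM in WT, 148 in 3A2, 137 in 3A38, 351 in 3B126 and 153 in 3B77. At day 6 the values were 2.51 CPM in WT, 92.7 in 3A2, 0.694 in 3A38, 13.95 in 3B126 and 13.8 in 3B77. All day 6 values thus lay below all day 3 values, with 3A2 the only clone above 14 CPM. The share of all genes that were lower in every clone, or without overlap between these days, was not counted. Such separations are therefore descriptions only. At day 8 Gdf3 was at 26.7 CPM in WT, 24.8 in 3A38, 18.97 in 3B126 and 0.0861 in 3B77, where the last value rests on 1 read.

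Tdgf1 (chromosome 9, 110939603 to 110946158, minus strand), the coreceptor, was at 498 CPM in WT, 251 in 3A2, 172 in 3A38, 910 in 3B126 and 250.2 in 3B77 at day 3. At day 6 it was at 28.3 CPM in WT, 456 in 3A2, 12.1 in 3A38, 54.4 in 3B126 and 26.4 in 3B77. It was thus lower at day 6 in 4 clones and higher in 3A2. At day 8 it was at 54.5 CPM in WT, 20.6 in 3A38 and 107 in 3B126, and had no read in 3B77. Reads of the pseudogene Tdgf1-ps1 reached at most 5.78 CPM, in 3A2 at day 3.

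Lefty1, the antagonist that had the most uniform course, was at 107 CPM in WT, 443 in 3A2, 175 in 3A38, 139.8 in 3B126 and 90.6 in 3B77 at day 3. At day 6 it was at 3.74 CPM in WT, 26.7 in 3A2, 1.32 in 3A38, 2.87 in 3B126 and 12.9 in 3B77, so that the days did not overlap. How many of all genes do so was not counted, so for Lefty1 too this is a description. At day 8 it was at 5.23 CPM in WT, 10.1 in 3A38, 15.2 in 3B126 and 0.172 in 3B77. Without its highest cell, the unscaled Lefty1 level of 3A2 at day 3 went from 477 to 342 CPM, and in 3B126 at day 8 1 cell held 86.2% of the Lefty1 reads.

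Lefty2, the other Lefty antagonist, had the widest range between clones at day 3, with 772 CPM in WT, 673 in 3A2, 332 in 3A38, 1741 in 3B126 and 198 in 3B77 at day 3. At day 6 Lefty2 was at 16.1 CPM in WT, 882 in 3A2, 46.5 in 3A38, 81.3 in 3B126 and 11.7 in 3B77. As with Tdgf1, 3A2 did not follow the other 4 clones. At day 8 Lefty2 was at 54.7 CPM in WT, 83.95 in 3A38, 114 in 3B126 and 0.0861 in 3B77. A single cell gave 39.2% of the Lefty2 reads of 3B126 at day 3, and without it the unscaled level of that library went from 999 to 649 CPM.

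Cer1 (chromosome 4, 82881751 to 82885148, minus strand) had a different course, with no read in any clone but 3B126 at day 3 and a level there of 19.2 CPM from 1 cell. At day 6 it was at 9.14 CPM in WT and 14.8 in 3A2, and at day 8 at 2.59 CPM in WT and 5.19 in 3B126. No Cer1 read was found in the other 9 libraries. Because whole groups were at 0, no fold change is given for Cer1.

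**Figure D1:**
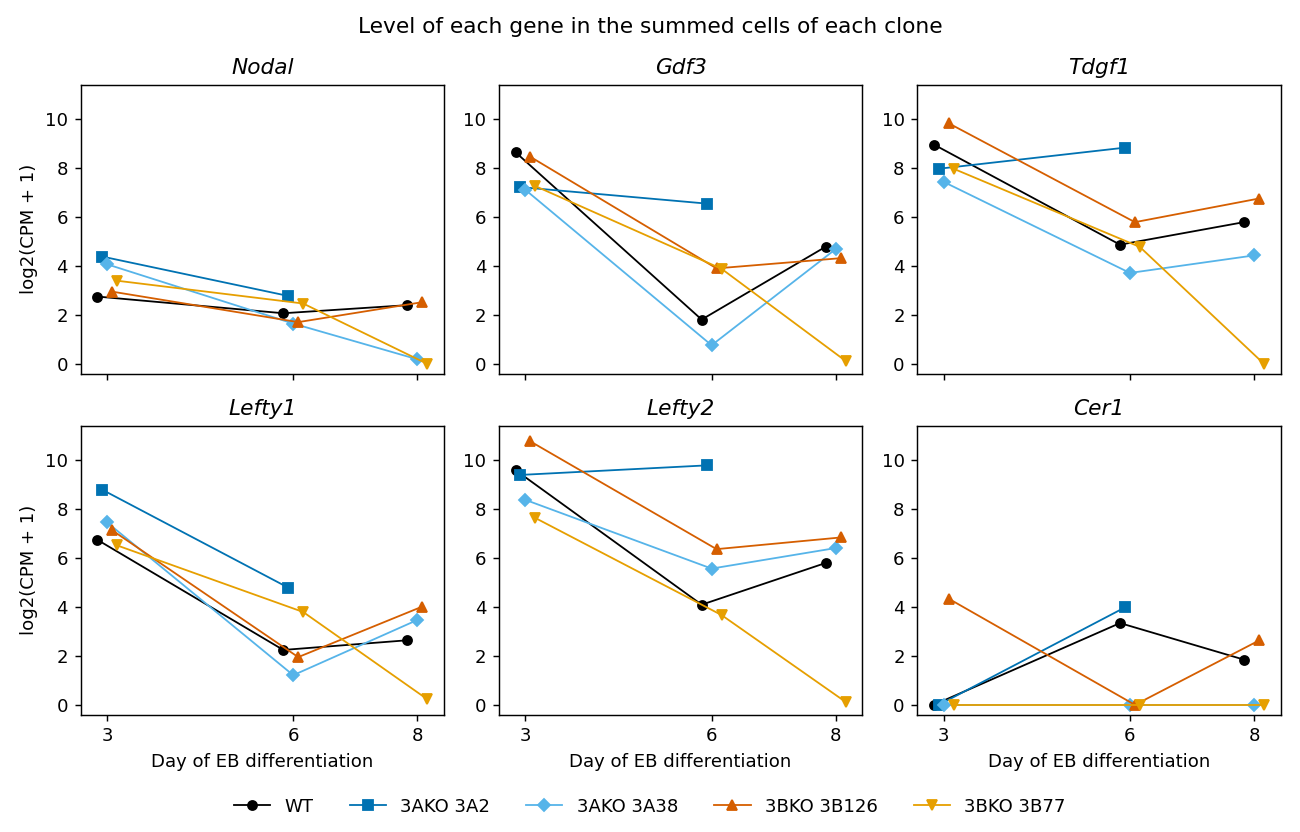
Level of each gene as log2(TMM-scaled CPM + 1) (y axis, log scale) against the day of differentiation (x axis), with 1 symbol for the summed cells of a clone and day, joined by lines and shifted slightly along x to separate clones. Each of the 5 genes other than Cer1 was lower at day 6 than at day 3 in WT, 3A38, 3B126 and 3B77, while Lefty2 and Tdgf1 were at 882 and 456 CPM in 3A2.

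Compared per kilobase of exon, as levels of different genes must be, Lefty2 had a mean of 285 CPM per kb over the 5 clones at day 3 (range 75.8 to 667), Tdgf1 159 (65.6 to 347), Lefty1 109 (51.6 to 252) and Gdf3 98.3 (56.7 to 165). These 4 ranges overlapped, so their order was not fixed by the data. Nodal, with 5.51 CPM per kb (2.74 to 9.51), lay below all of them in every clone. Cer1 averaged 2.21 CPM per kb (0 to 11.05), from reads of 1 clone.

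The change from day 3 to day 6 was large in size but did not pass the test across clones. The 14 sums were fitted with the quasi-likelihood test of edgeR on 24083 genes, with calls at 0.05 after Benjamini-Hochberg adjustment. Its p-values measure the spread between clones, and WT, with 1 library per day, was taken to vary like the others. The log2 fold change, averaged over the genotypes, was −4.39 ± 1.36 (SE) for Lefty1 (edgeR adjusted p = 0.284) and −4.37 ± 1.68 for Gdf3 (adjusted p = 0.391). It was −3.36 ± 1.78 for Lefty2, −2.61 ± 1.69 for Tdgf1 and −1.42 ± 1.01 for Nodal, with edgeR adjusted p of 0.545, 0.649 and 0.668. None of the 6 genes was called, against 0.0374% of all genes. At an unadjusted p under 0.05, 2 of the 6 passed (Lefty1 and Gdf3, both lower), against 11.6% of all genes. DESeq2 called 3 of the 6 (Lefty1, Gdf3 and Lefty2), against 9.39% of its genes. The median of the 5 genes was −3.36 and that over all genes tested 0.11. With library totals in place of TMM factors the median of all genes went to 0.38, and the 5 genes stayed lower, between −4.14 and −1.16.

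The count changed when clone 3A2 was left out. Its part cannot be told apart from that of the spread, for which all genes shared one trend in that fit. The fit without a filter on low counts also shared one trend and called 4 of the 6 genes, with 3A2 kept. Without it edgeR called 4 of the 6 genes lower, Gdf3 (log2 fold change −6.39), Lefty1 (−5.26), Lefty2 (−4.28) and Tdgf1 (−3.95). That fit called 556 of 23416 genes in all, and its spread came from the 3BKO clones alone. The edgeR adjusted p of Gdf3 was 7.57e-09 there and ranged up to 0.701 over the other alternatives.

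Between day 3 and day 8 the log2 fold changes were −4.40 ± 1.43 (SE) for Lefty1, −3.72 ± 1.69 for Gdf3, −3.50 ± 1.91 for Lefty2, −3.33 ± 1.89 for Tdgf1 and −3.05 ± 1.19 for Nodal. The edgeR adjusted p ranged from 0.176 (Lefty1) to 0.468 (Tdgf1), so again none of the 6 was called, against 0.822% of all genes. Nodal and Lefty1 had an unadjusted p under 0.05, which 16.3% of all genes had. DESeq2 called 5 of the 6, all lower, against 18% of its genes. Leaving out the library labelled 3B77 at day 8 and plate C344, edgeR called Lefty1 (−4.61), Nodal (−5.97), Tdgf1 (−7.47) and Gdf3 (−7.52) lower, among 796 of 23669 genes called, and the median of all genes in that fit was −0.59. All 5 genes were lower at day 8 than at day 3 in each of the 4 clones with both days. The share of all genes for which this holds was not counted. From day 6 to day 8 no gene of the 6 was called or had an unadjusted p under 0.05, against 0% and 5.59% of all genes, and DESeq2 called none of the 6 and 2.17% of its genes.

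The share of cells with a read was also lower at day 6, in 3A2 as well, where the summed levels of Tdgf1 and Lefty2 were higher. To compare plates of different depth, each cell was thinned to 50000 reads. At day 3 Tdgf1 was found in 84.3% to 100% of the cells of a clone, Gdf3 in 76.7% to 92.8%, Lefty2 in 60.3% to 98.6%, Lefty1 in 54.8% to 81.2% and Nodal in 15.1% to 63.8%. At day 6 the shares in WT were 25.4% for Tdgf1 (exact 95% interval 15.5 to 37.5), 16.4% for Lefty2 (8.49 to 27.5), 7.46% for Gdf3 (2.47 to 16.6) and 5.97% (1.65 to 14.6) for both Lefty1 and Nodal. In 3A2 they were 81.3%, 71.3%, 63.8%, 27.5% and 18.8% in the same order of genes, the highest of any clone for each. Intervals cover counting error only, since reads amplified by PCR are not independent molecules.

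Each of the 5 genes was found in fewer cells at day 6 than at day 3 in 5 of 5 clones. The share of all genes found in fewer cells in every clone was not counted. The mean difference over clones was −64.8 percentage points for Tdgf1 (SD 27.7, n = 5), −62.9 for Gdf3 (SD 21.9), −53.4 for Lefty1 (SD 8.16), −52.5 for Lefty2 (SD 15.9) and −23.99 for Nodal (SD 18.9). The Nodal difference was −9.84 points when at least 3 reads were asked for and −0.53 with at least 10 reads (exact permutation p = 0.5), where the other 4 genes still differed by −26.5 to −46.1. An exact two-sided sign-flip permutation test gave p = 0.0625 for each, unadjusted for the 6 genes, which is the smallest that 5 clones can give and cannot pass 0.05. Cer1 differed by 1.17 percentage points (SD 2.84, exact permutation p = 0.75).

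As a measure of background, 52 cells of days 6 and 8 carried at least 3 of 5 mesenchyme markers (median 209060 reads). Reads of Nodal, Lefty1 and Tdgf1 were each found in 1 of these cells after thinning (1.92%, exact interval 0.0487 to 10.3), and those of Lefty2, Gdf3 and Cer1 in 0, which allows a share of up to 5.77%. Shares were higher in some other classes. Lefty1 was in 3 of 30 cells with blood markers (10%) and Tdgf1 in 2 of 29 with endothelial markers (6.90%). In 187 cells with neuroectoderm markers (median 309304 reads) they were 8.02% for Nodal, 6.42% for Lefty1, 11.8% for Lefty2, 9.09% for Tdgf1 and 10.2% for Gdf3. The day 6 shares of Nodal in WT (5.97%) and 3A38 (5.56%) lay within the mesenchyme interval, as did those of Lefty1 in WT (5.97%), 3A38 (2.78%) and 3B126 (8.62%). Those of Tdgf1 and Gdf3 in 3A38 (1.39% each) were below its upper end. As shares of cells, these cannot be told from background. This does not extend to the reads within a cell. In 3A38 at day 6 the Tdgf1 and Gdf3 shares rest on the same 1 cell, the only one there with at least 3 Pou5f1 reads. Without thinning it held 507 reads of Tdgf1 and 29 of Gdf3. Its levels were not compared with those in the mesenchyme cells. The shares of Tdgf1, Lefty2 and Gdf3 in 3A2 (63.8% to 81.3%) lay above those of all the marker classes given here.

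Without thinning, every Tdgf1 read of 3A38 at day 6 came from 1 of 72 cells, which held 507 reads. The unscaled level in that cell was 1189 CPM. Over the cells with a Tdgf1 read, the median unscaled level was 341.9 CPM in WT at day 3, 59.2 at day 6 and 229.6 at day 8, where all such cells came from plate C344. The share of cells with a read, without thinning, was 100%, 38.8% and 30.3% at these days. On plate C344 of WT day 8 Tdgf1 was found in 33.8% of cells, Gdf3 in 32.4%, Nodal in 25.0%, Lefty2 in 20.6% and Lefty1 in 7.35%. On plate C343, of 21 cells, Tdgf1, Gdf3 and Nodal were found in 0 (up to 14.3%) and the Lefty genes in 1 cell each. Among the 40 cells labelled 3B77 day 8, only Lefty1 was found, in 1 cell.

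**Figure D2:**
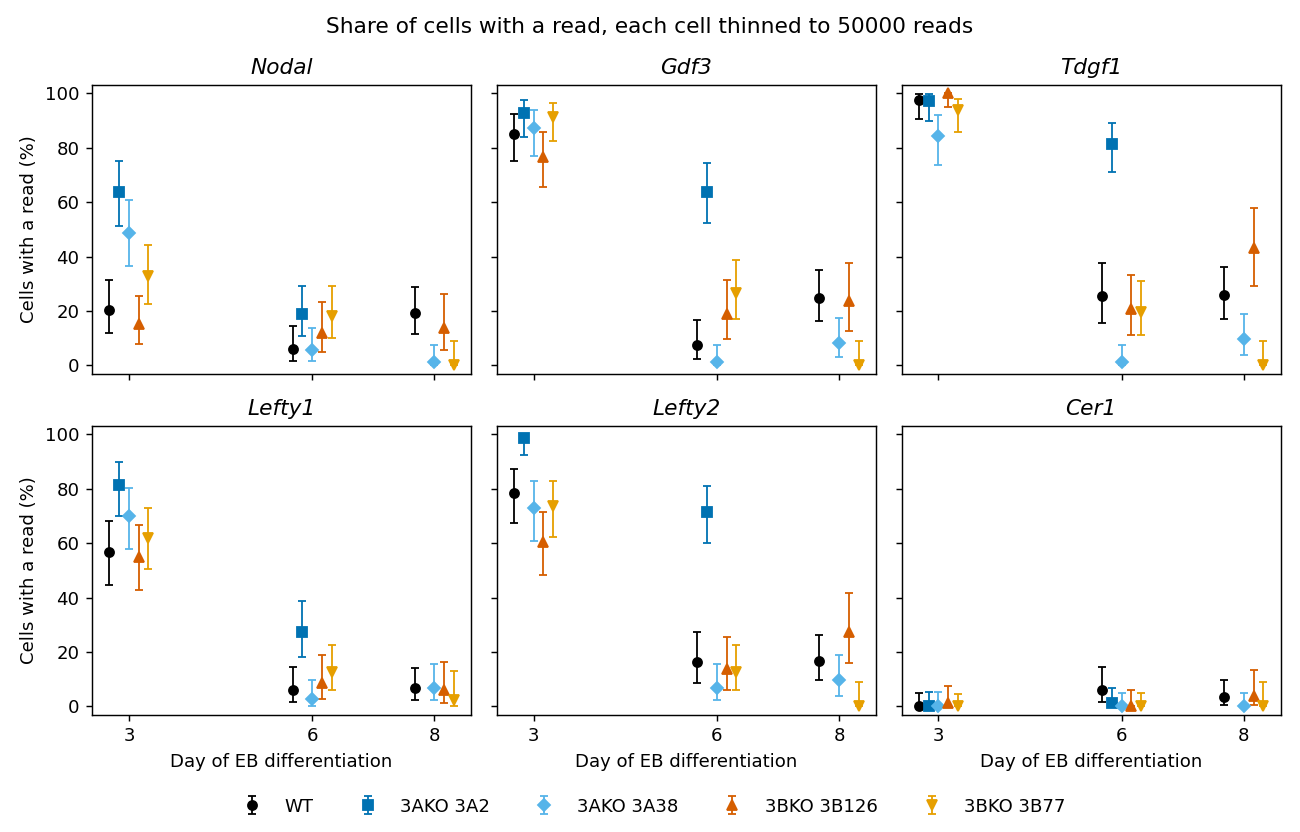
Percent of cells with at least 1 read after thinning each cell to 50000 reads (y axis) against the day of differentiation (x axis), 1 point per clone with exact 95% binomial intervals of counting error. Tdgf1 went from 84.3 to 100% of cells at day 3 to 1.39 to 25.4% at day 6 in 4 clones and 81.3% in 3A2.

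Counted together, the 5 genes other than Cer1 were found in nearly every cell at day 3 and in few cells later. No cell of the 365 at day 3 lacked reads of all 5 genes after thinning, and 202 had at least 4. At day 6 all 5 were missing in 67.2% of WT cells, 87.5% of 3A38, 53.4% of 3B126, 53.5% of 3B77 and 10.0% of 3A2. At day 8 they were missing in 87.5% of 3A38 cells and 47.1% of 3B126 cells. They were also missing then in 97.5% of the cells labelled 3B77, 90.5% of plate C343 and 55.9% of plate C344. Of the 600 cells of days 6 and 8, 39 had at least 4 of the genes, and 20 of these were 3A2 cells of day 6, 8 came from plate C344 and 4 from 3A38 at day 8.

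**Figure D3:**
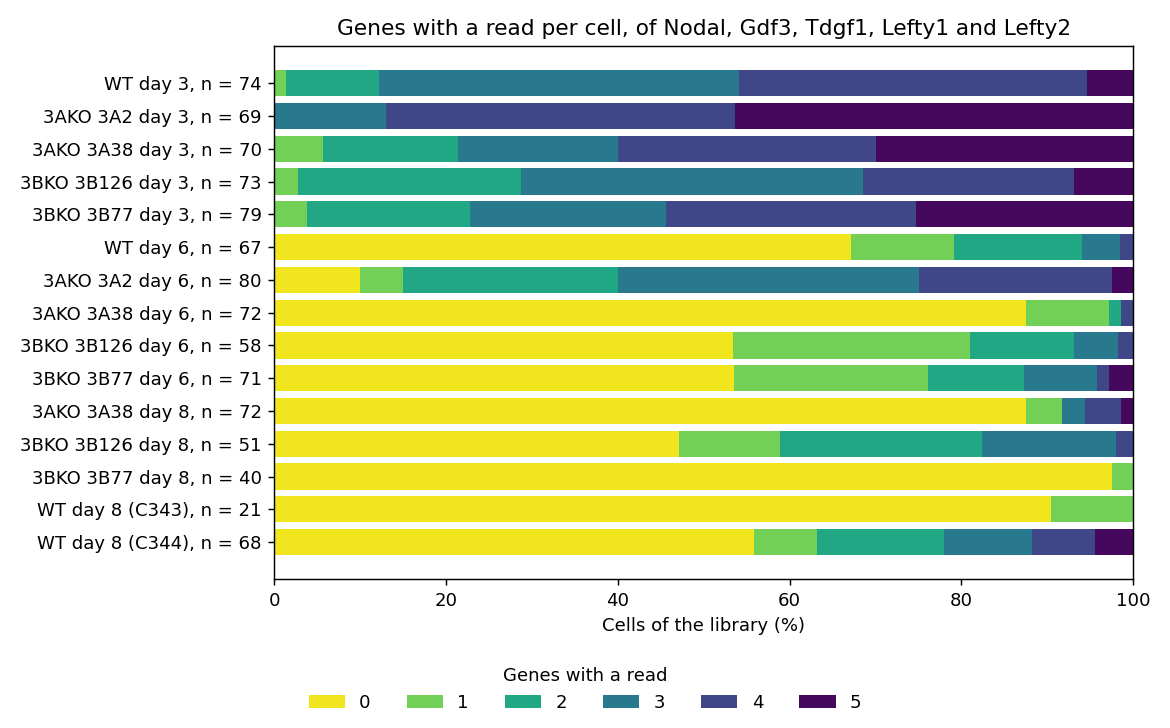
Percent of the cells (x axis) of each library (rows) by the number of genes with a read (colour, 0 to 5) among Nodal, Gdf3, Tdgf1, Lefty1 and Lefty2 after thinning, with WT day 8 per plate and the number of cells in each label. Cells with none were absent at day 3 and made up 10.0% of 3A2 and 53.4 to 87.5% of the other clones at day 6.

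The late cells with at least 4 of the genes carried pluripotency transcripts, read at 3 or more reads per cell. Zfp42 (Rex1), a marker of naive ESCs, was present in 38 of the 39 cells (97.4%) against 10 of 368 late cells without any of the 5 genes (2.72%). The naive factors Tfcp2l1 and Esrrb were in 82.1% and 66.7% against 1.36% and 0.543%, and the pluripotency factors Nanog and Pou5f1 (Oct4) in 94.9% and 71.8% against 16.6% and 13.04%. Median depths were alike, with 264110 and 245020 reads. Fgf5, a marker of the primed epiblast, was in 7.69% of the 39 cells, below its 41.4% of all day 3 cells, whereas Tfcp2l1 was in 17.3% of day 3 cells. The neural marker Crabp2 went the other way, with 15.4% of the 39 cells and 58.2% of the cells with none. Of the primitive streak markers, T was in 7 of the 39 cells (17.9%) and Eomes in 5 (12.8%), each against 3.26% of the cells with none. Mixl1, Mesp1, Fgf8 and Wnt3 were in 2.56% to 5.13% of the 39 cells. Only Wnt3 was lower there than in the cells with none (5.71%). Without plate C344 and the library labelled 3B77 at day 8, Zfp42 was in 30 of 31 cells (96.8%) against 3.09% of the cells with none, Tfcp2l1 in 77.4% against 1.37% and Pou5f1 in 67.7% against 16.2%. Without the 3A2 cells, 19 of 19 cells carried Zfp42, 16 of 19 Tfcp2l1, 6 of 19 T and 1 of 19 Eomes. These cells were chosen by the genes described here, so the shares are a description and were not tested.

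**Figure D4:**
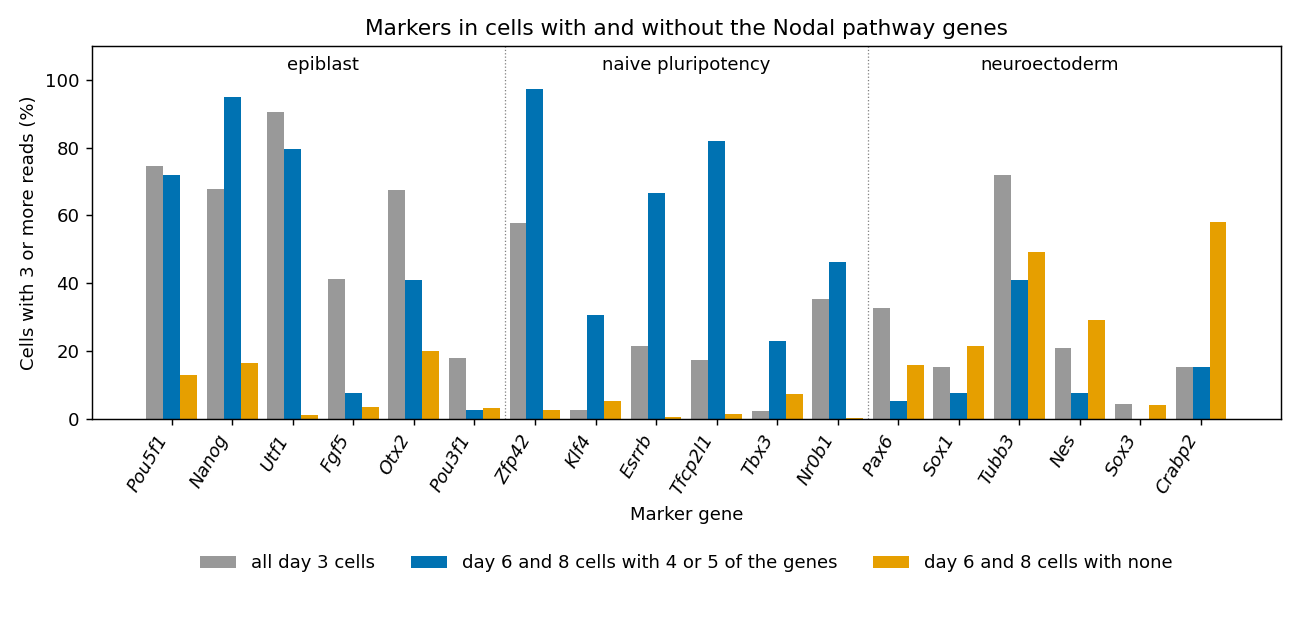
Percent of cells with 3 or more reads (y axis) of the epiblast, naive pluripotency and neuroectoderm markers (x axis), in all 365 day 3 cells, in the 39 cells of days 6 and 8 with at least 4 of the genes and in the 368 with none, all clones together. Zfp42 was in 97.4% of the cells with at least 4 and in 2.72% of those with none.

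Late cells were also split by Pou5f1. At day 6 Gdf3 was found in 69 of 146 cells with at least 3 Pou5f1 reads (47.3%) and in 9 of 170 cells without any (5.29%), and Tdgf1 in 52.7% and 11.2%. Both shares were higher in Pou5f1 cells in each of the 4 clones that had at least 5 cells of both kinds. Lefty2 was in 36.3% and 14.7%, but in 3B126 it was found in 4 of 35 and 3 of 18 cells, so that this clone went the other way. At day 8 Gdf3 was in 75.6% against 2.44% and Nodal in 29.3% against 5.37%. Plate C344 held 23 of the 41 day 8 cells with Pou5f1, and all 12 of those with Nodal. Without plate C344 and the library labelled 3B77, Gdf3 was in 11 of 18 cells with Pou5f1 and 4 of 121 without it, Tdgf1 in 14 and 12, and Nodal in 0 and 7, so that Nodal went the other way. In 3B126 at day 8 Nodal was found in 0 of 14 cells with Pou5f1 and in 6 of 34 without it. Nodal in that library was thus found in cells without a Pou5f1 read, which need not lack Pou5f1. At day 3, 36 cells of 3B126 and 18 of WT had no Pou5f1 read, against 0 in 3A2, 3A38 and 3B77. Tdgf1 was found in all of these cells of 3B126 and WT, and Gdf3 in 27 and 15 of them. Both libraries are of batch 2 and had fewer genes per cell at day 3, a median of 3713 in 3B126 and 5096 in WT. The medians were 6946 in 3A2, 6914 in 3A38 and 6907 in 3B77. The part of this difference in the missing Pou5f1 reads was not tested.

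Within day 3 libraries the genes were also compared from cell to cell. Lefty1 and Lefty2 had a Spearman correlation over cells of 0.33 in 3A2, 0.29 in 3A38, 0.27 in 3B126, 0.50 in 3B77 and −0.01 in WT (69 to 79 cells each, thinned reads, all cells of a library sharing plate and depth). Both were found together in 44 of the 79 cells of 3B77 and in 32 of the 74 cells of WT, where their single shares alone would give 35.97 and 32.9 cells. Nodal and Lefty1 had correlations of 0.32 in 3B77, 0.33 in 3A38 and 0.18 in 3A2, and of −0.03 and −0.01 in WT and 3B126. Correlations of this size in sparse counts are given as a description.

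The genotypes were compared at each day to ask how loss of either enzyme bears on these genes. At day 3 Nodal and Lefty1 were higher in both 3AKO clones than in WT and both 3BKO clones. The share of all genes that separate these clones in the same way was not counted, so the separation is a description only. Nodal was at 15.8 and 19.9 CPM against 5.74 to 9.55 CPM, and found in 48.6% and 63.8% of cells against 15.1 to 32.9%. Lefty1 was at 175 and 443 CPM against 90.6 to 139.8 CPM. On the log2 scale Nodal differed between 3AKO and WT by 1.64 ± 1.95 (SE) and Lefty1 by 1.53 ± 2.16, with edgeR adjusted p = 0.839 and 0.877. Since 3AKO had a batch to itself, genotype and batch cannot be told apart here. The summed level of the 6 epiblast markers was 525 and 545 CPM in the 3AKO clones, 199 in WT, 314 in 3B126 and 448 in 3B77, and its part in this difference was not tested. Nor was that of the lower number of genes per cell in WT and 3B126 at day 3, given above. In TMM-scaled level Gdf3 went the other way than Nodal and Lefty1, at 137 and 148 CPM in 3AKO, 153 in 3B77 and 351 and 401 in 3B126 and WT. Without TMM scaling Gdf3 was at 138 and 160 CPM in 3AKO, 176 in 3B77, 202 in 3B126 and 286 in WT. Its share of cells did not follow these levels. Gdf3 was found in 87.1% and 92.8% of 3AKO cells, 91.1% in 3B77, 85.1% in WT and 76.7% in 3B126.

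For Lefty2 at day 3 the 3BKO clones did not stand on one side of WT. It was at 1741 CPM in 3B126 and 198 in 3B77, with WT between them at 772. In TMM-scaled level both clones were above WT in Nodal and below it in Gdf3 at that day. Without TMM scaling Nodal was at 3.87 CPM in 3B126 against 4.10 in WT. Nodal was found in 15.1% of 3B126 cells against 20.3% of WT cells, so both of these measures put 3B126 below WT. Gdf3 was found in 76.7% of 3B126 cells, 91.1% of 3B77 cells and 85.1% of WT cells, so its shares lay on both sides of WT. At day 6 both 3BKO clones had more Gdf3, 13.95 and 13.8 CPM, than WT with 2.51 (log2 fold change 2.47 ± 2.83 SE, edgeR adjusted p = 1). Within batch 2 alone, 3B126 had 910 CPM of Tdgf1 at day 3 against 498 in WT, and 54.4 against 28.3 at day 6, differences of 2 single libraries without replicates. Without TMM scaling these levels were 522 against 356 CPM at day 3 and 42.7 against 28.2 at day 6. Tdgf1 was found in 100% of 3B126 cells against 97.3% of WT cells at day 3. At day 6 the shares went the other way, 20.7% against 25.4%, and 3 cells held 73.9% of the 3B126 reads.

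In none of the 6 comparisons of a genotype with WT was any of the 6 genes called by edgeR, nor was any other gene (0% in each). At day 8, without the library labelled 3B77 and plate C344, edgeR called 8 of 23669 genes for 3BKO and 30 for 3AKO, and again none of the 6. None had an unadjusted p under 0.05 either. Over all genes that share was 3.13%, 1.86% and 1.58% for 3BKO at days 3, 6 and 8 and 7.62%, 1.42% and 5.66% for 3AKO. DESeq2 called none of the 6 in these comparisons, against 1.35%, 0.447% and 0.111% of genes for 3BKO and 5.33%, 0.312% and 3.82% for 3AKO. The standard errors of these differences were 1.76 to 3.70 on the log2 scale for the 5 genes without Cer1, so that only very large differences from WT could have been shown.

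The change from day 3 to day 6 was also compared between genotypes. In 3AKO it differed from that in WT by 5.70 ± 3.86 (SE) on the log2 scale for Gdf3, 5.47 ± 4.37 for Lefty2 and 4.29 ± 4.23 for Tdgf1, with edgeR adjusted p of 0.988 to 1. Without 3A2 the values were 2.76 for Lefty2 and 0.33 for Tdgf1. The 3AKO clones differed widely from each other at day 6, with Lefty2 at 882 CPM in 3A2 and 46.5 in 3A38, and Tdgf1 at 456 and 12.1 CPM. The summed level of the naive markers went from 369 CPM at day 3 to 767 at day 6 in 3A2. Lefty2 and Tdgf1 rose in that clone, while Gdf3, Lefty1 and Nodal fell. The naive sum went from 43.9 to 7.47 CPM in 3A38, 155 to 35.9 in WT and 109 to 50.1 in 3B77. In 3B126 it changed little, from 142 to 128 CPM, although Lefty2 and Tdgf1 fell there as well. The part of the naive markers in the levels of Lefty2 and Tdgf1 was not tested. None of the 6 genes was called in the changes of 3BKO and 3AKO against WT or had an unadjusted p under 0.05, against 0% in each, and 2.30% and 4.95%, of all genes. DESeq2 called Cer1 for 3BKO, where it fits groups at 0 and gives no usable fold change, against 0.533% of its genes, and none of the 6 for 3AKO, against 1.25%.

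Cer1 was found in only 16 cells, and 14 of them held at least 3 reads. WT at day 6 gave 6 of them, plate C344 4, 3B126 at day 8 3, and plate C343, 3A2 at day 6 and 3B126 at day 3 1 each. Most of the reads lay in few cells. The 3A2 cell held 418 reads (765 CPM) and the 3B126 cell of day 3 342 reads (3743 CPM). In WT at day 6 the highest of the cells held 94 reads and the lowest 2.

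Many of the cells with Cer1 carried genes of the primitive streak and of mesendoderm, given here as a description of 14 chosen cells. Of the 14 cells, 10 carried Eomes and 9 Lhx1, transcription factors that Nodal signalling induces, against 10.2% and 5.56% of 324 cells without Cer1 on the same plates. Mixl1, a homeobox gene of the streak, was in 8 of them and Foxa2, a factor of endoderm and axial mesoderm, in 6, against 4.94% and 0.617%. Of the markers of visceral endoderm, Ttr, Amn, Cubn and Afp were in 0 of 14 cells and in at most 0.617% of the others, and Apoa1 was in 1 (7.14% against 1.23%). Pou5f1 was in 1 of 14, against 39.8% of the others. Of the other genes described here, Tdgf1 was in 9 of the 14 cells (59.9% of the others), Lefty2 in 6 (42.3%), Lefty1 in 2 (23.8%), Nodal in 2 (15.1%) and Gdf3 in 1 (46.9%). The cell of 3B126 at day 3 held 139 reads of Lhx1, 120 of Lefty1, 49 of Foxa2, 19 of Eomes, 8 of Sox17 and 4 of Hhex. It held none of Lefty2, Nodal, T or Mixl1. No cell was given a type from these genes. At day 6 no Cer1 read was found in 58 cells of 3B126 or 71 cells of 3B77, which allows shares of up to 5.17% and 4.23%. This was not particular to 3BKO. In 3A38 none of 72 cells had a Cer1 read at day 6 (up to 4.17%), and in 3A2 1 of 80 had. At day 8 Cer1 was read in 3 of 51 cells of 3B126. The WT share at day 6 was 6 of 67 without thinning and 5.97% with it (1.65 to 14.6). With 1 library per clone and day, the differences between WT and the other clones were not tested.

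**Figure D5:**
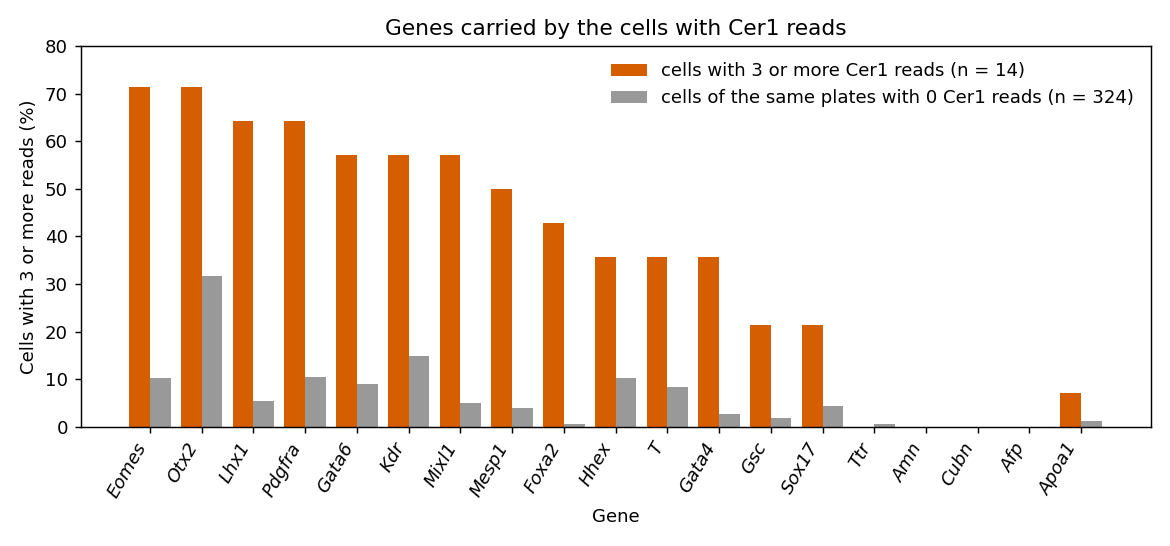
Percent of cells with 3 or more reads (y axis) of streak, endoderm and visceral endoderm genes (x axis), in the 14 cells with at least 3 Cer1 reads and in the 324 cells of the same plates with none. Eomes was in 71.4% of the Cer1 cells against 10.2%. The genes plotted were picked from the fixed lists after their values were seen.

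To find the genes whose level was most like that of each of the 6, levels as log2(CPM + 1) were correlated over the 14 libraries for 6064 genes that varied (SD of at least 1). Lefty2 and Tdgf1 were each other's closest gene (Pearson r = 0.95). After Tdgf1, Lefty2 was most like 4930447C04Rik (0.92), Halr1 (0.89), Dppa4 (0.89) and Zfp985 (0.89). Tdgf1 was next to Etv5 (0.94), Dppa4 (0.94), Stx3 (0.93) and the transcript Platr10 (0.93). Gdf3 was most like Gm17771 (0.94), Platr10 (0.94), Chchd10 (0.94), A830018L16Rik (0.93) and Zfp982 (0.93), and Lefty1 was close to Utf1 (0.93), Gm17771 (0.92) and Gdf3 (0.91). Nodal stood closest to Gtse1 (0.96), Mapkapk3 (0.95), Trh (0.94), Pou5f1 (0.92) and Cdc20 (0.92). Cer1, at 0 in 9 of 14 libraries, reached only 0.82 with Zfp114, and then 0.75 with Hist1h2bc, 0.74 with Gm38091, 0.72 with 5031415H12Rik and 0.72 with 4732419C18Rik. Among the 6, Cer1 had correlations of 0.05 to 0.39 with the other genes, which had 0.68 to 0.95 with each other. The libraries share clones, plates and days, so these values are descriptions. Dppa4, Utf1 and Pou5f1 are known genes of pluripotent cells.

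The other genes of the pathway showed no common direction. A list of 30 further genes of ligands, convertases, receptors, transducers, targets and antagonists was examined, of which 27 were tested, and Gdf1 was not among the genes of the table. None of the 27 was called in any of the 11 comparisons. Between days 3 and 6, 19 were higher and 8 lower with a median log2 fold change of 0.55, against a median of 0.11 over all genes. An unadjusted p under 0.05 was found for 3 higher and 4 lower of them, against 11.6% of all genes. The ligand Bmp4 had a mean of 1.01 CPM at day 3 and 12.9 at day 6 (log2 fold change 3.71 ± 1.09 SE, edgeR adjusted p = 0.224), while Inhba and Inhbb, which encode activin subunits, were at means of at most 0.444 CPM at every day. The convertases Furin and Pcsk6, which can cleave the Nodal precursor, had means of 10.2 and 4.49 CPM at day 3 and 2.45 and 0.592 at day 6, neither called. The type II receptors Acvr2a and Acvr2b had 18.4 and 20.4 CPM at day 3 and 35.4 and 44.1 at day 6. Cfc1, the other EGF-CFC coreceptor, was at a mean of 1.53 CPM at day 3, 19.8 at day 6 and 4.62 at day 8, with libraries at 0 on each day.

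The transducers Smad2, Smad4 and Trim33 were present at every day, with means of 35.5, 98.3 and 128 CPM at day 3, 55.5, 75.5 and 160 at day 6 and 34.5, 56.8 and 102.6 at day 8. Of the targets, Otx2, a homeobox gene of the epiblast and forebrain, had 117 CPM at day 3, 82.5 at day 6 and 16.2 at day 8 (day 8 against day 3 −2.82 ± 1.21 SE, edgeR adjusted p = 0.290). Skil, which encodes the Smad inhibitor SnoN, was at 455 CPM at day 3, 90.6 at day 6 and 1533 at day 8, with libraries between 45.2 and 5931 CPM at day 8. Of the other antagonists, Fst (follistatin) was at 27.3, 91.5 and 36.2 CPM, and Dand5, which encodes a relative of Cer1, at no more than a mean of 3.80 CPM.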

How the data were processed

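The deposited values were whole-number counts of reads for each gene in each cell, from Smart-seq2 libraries, full-length and without molecular identifiers. Per the submitters' processing notes and the methods, the authors made these counts with featureCounts 1.6.1 from reads aligned to mm10 by STAR 2.7.1a after Trim Galore 0.5.0 and FastQC 0.11.2, left out multi-mapped reads and removed shallow cells. Whether counting used strand is not given there. Genes and lists were chosen with earlier results of these data known. Cells were grouped by their labels, and counts of all cells of a clone and day were summed. The 14 sums were fitted in edgeR 4.0.16 (R 4.3.3) with 9 genotype-by-day means, TMM factors (0.574 to 1.43), filterByExpr and Benjamini-Hochberg adjustment over 24083 genes. DESeq2 1.42.0 and other settings were alternatives. Late cells without plate C344 and the library labelled 3B77 at day 8 were added after seeing the data. Script steps were tested on simulated data. Shares of cells used counts thinned to 50000 reads per cell, with exact 95% binomial intervals, and an upper limit of 3 cells where none was found. The genes named were the 6 members, the 5 genes most like each by Pearson correlation, up to 3 pathway genes per role with the highest mean, Dnmt3a and Dnmt3b as checks of the labels, and Pou5f1 to split cells. Genes named from the marker lists were chosen after their values were seen. Some genes that this rule names and 1 sequence are not reported here.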

Additional observations from a re-analysis of the deposited data

Results flagged for a closer look

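The change of Nodal from day 6 to day 8 had opposite signs in WT and 3AKO. In WT the level went from 3.20 to 4.28 CPM, a difference of 1.08 CPM in 1 library per day, and in the only 3AKO clone with both days, 3A38, from 2.13 to 0.138 CPM, a difference of −1.99 CPM. The 3A38 value at day 8 rests on 5 reads of 1 cell, and the WT reads at day 8 all came from plate C344. The difference between the genotypes was not tested.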

How the results depend on the processing

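With low counts unfiltered, edgeR called 4 of the 6 genes between days 3 and 6 and 4 between days 3 and 8, and it called 1, Cer1, for 3BKO against WT at day 6 and 1, also Cer1, in the change of 3BKO against WT. DESeq2 called 3, 5 and, in the change of 3BKO against WT, 1 (Cer1). For day 8 against day 3, cells thinned before summing gave 1 call (Lefty1), and leaving out the library labelled 3B77 at day 8 and plate C344 gave 4. Leaving out 1 clone gave 0 to 4 calls between days 3 and 6 and 0 to 4 between days 3 and 8, with 4 in both without 3A2 and, at day 8, 1 (Nodal) without 3B126. The cause was not tested. The fits without 3A2 and without the filter estimated an infinite prior df, so that all genes shared one trend of spread. The log2 fold changes of the 5 genes other than Cer1 stayed negative under all 14 alternatives for both days. The difference in the share of cells with Cer1 reads turned from 1.17 to −0.030 percentage points without WT, with a range of −0.030 to 1.81 over clones left out.

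Days of a clone were tested with the clone as a replicate block, which called 0 of the 6 genes between days 3 and 6 (Lefty1 −4.62, edgeR adjusted p = 0.293) and 0 between days 3 and 8. Over all genes it called 67 against 9 without the block, and 394 against 198. Deviations of a clone at days 3 and 6 correlated at 0.149 in 3AKO and 0.076 in 3BKO. Other settings also moved the counts over all genes. Library totals called 119 and 457 genes, no filter 808 and 1555, DESeq2 1428 and 2736, and thinned sums 30 and 535. Of the 5 genes most like each member, 1 to 3 stayed among the closest by Spearman correlation. With 1 WT library per day and 5 residual degrees of freedom, the number of clones limits every comparison of genotypes.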
